A study of Mus musculus with 6 samples.

Results

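Hmga1, its copy Hmga1b and Hmga2 are the 3 genes of the architectural HMGA family found in the deposited count table, chosen by their gene symbols out of 25746 genes, and all 3 passed the filter on low counts that left 12192 genes for testing. They were singled out because their counts had been seen to differ between the genotypes compared here, so the levels and fold changes below describe them and carry no test.

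RNA-seq was done on 2 Acta2 knockout (KO) and 2 wild-type (WT) samples of mouse cardiac fibroblasts, and ATAC-seq, a transposase assay of open chromatin, on 1 KO and 1 WT sample. Acta2 encodes α-smooth muscle actin, the classical marker of the myofibroblast, and the study asked how fibroblasts fare without it. Per the labels' protocols, fibroblasts from WT and from Acta2 fl/fl mice both received Cre from an adenovirus and then TGFβ for 2 days. The same labels also describe an in vivo arm with a tamoxifen-inducible MerCreMer, in which all mice received tamoxifen (75 mg per kg daily over 5 days, beginning at 6 weeks of age), a further course around surgery, and coronary ligation at 9 weeks of age, after which Tcf21 lineage-traced eGFP+ fibroblasts were sorted. Which arm a library came from, the strain of the mice and whether the 2 replicates were separate cultures are not stated, so the spread between replicates may be technical.

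HMGA proteins are small, abundant nuclear proteins that grip the minor groove of AT-rich DNA through short basic segments called AT-hooks, bend it, compete with linker histone and help transcription factors assemble. Hmga1 and Hmga2 are high in the embryo and in many tumours and low in most resting adult tissues. Hmga2 messenger RNA is a textbook target of the microRNA let-7, which LIN28 proteins keep from maturing.

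The coding sequences around the AT-hooks are shown first because they set how far the reads of the 3 genes can be told apart. Capitals mark the codons of the Arg-Gly-Arg-Pro cores. The Hmga1 transcript most like Hmga1b has the same coding sequence as Hmga1b from start to stop in GENCODE, so the stretch is printed once. The coding sequences of the other Hmga1 transcripts were not compared.
Hmga1 and Hmga1b, bases 61 to 276: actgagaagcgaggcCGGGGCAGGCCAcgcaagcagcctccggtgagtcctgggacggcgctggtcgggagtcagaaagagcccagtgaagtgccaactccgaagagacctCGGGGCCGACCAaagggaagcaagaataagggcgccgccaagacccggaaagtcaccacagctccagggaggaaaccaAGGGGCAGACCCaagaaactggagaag
Hmga2, bases 70 to 255: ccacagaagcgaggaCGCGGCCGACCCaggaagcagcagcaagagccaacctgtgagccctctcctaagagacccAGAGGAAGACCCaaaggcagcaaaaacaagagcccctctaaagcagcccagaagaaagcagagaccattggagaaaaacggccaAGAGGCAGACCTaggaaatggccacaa
Each coding sequence holds 3 AT-hook cores. Counted from the first base of the start codon, it is 324 bases long with its stop codon in Hmga1 and Hmga1b and 327 in Hmga2. Translated from these transcripts and aligned, the proteins of Hmga1 and Hmga2 share 54 of 121 alignment columns, or 44.6%. Those of Hmga1b and of this Hmga1 transcript are identical.

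Hmga1 (ENSMUSG00000046711) lies on the plus strand at chr17:27556497-27563674 in mm10 and has 17 annotated transcripts. Hmga1b (ENSMUSG00000078249) lies on the plus strand at chr11:120762794-120764419, and its transcript is a single exon. Aligned to the spliced Hmga1 transcript most like it, that exon matched over 1602 bases with 3 substitutions and no gap, an identity of 99.8%, and ended in 24 further bases that are all A. The substitutions are A657G, A784G and G1246T, with the Hmga1 base first, the Hmga1b base last and positions counted from 1 at the 5′ end of the Hmga1b transcript. All 3 lie in the 3′ UTR, the untranslated end of the message. Of the distinct 100-base stretches of the Hmga1b transcript, 78.8% also occur in an Hmga1 transcript, and 40.1% of those of Hmga1 occur in Hmga1b. Hmga2 (ENSMUSG00000056758), on the minus strand at chr10:120361275-120476469, shares none with another gene of the table.

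A read of Hmga1b can therefore be told from one of Hmga1 only where it covers 1 of 3 bases or the transcript's ends. The deposited values are estimated counts, and how they divide such reads between genes is not stated. The split between these 2 rows is thus uncertain, and the sum is given beside it. No other gene of the table shared 50% or more of its stretches with Hmga1. A 277-base stretch of that Hmga1 transcript recurs without a mismatch on chromosome 11 at chr11:46465829-46466105, inside Havcr2. Hmga2 has a processed pseudogene, Gm38158, at chr1:176835526-176839072 inside Sdccag8, which matched 96.5% of the bases aligned.

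Hmga1 was the member with the most transcript in both genotypes. Its estimated counts were 10612.57 and 9997.79 in the KO libraries against 3602.94 and 3792.86 in the WT libraries. As CPM, counts relative to the scaled library size, the KO libraries stood at 930.0 and 912 and the WT libraries at 432 and 420. Both KO libraries lay far above both WT libraries, and the 2 libraries of a genotype were close to each other. Mean CPM was thus 921 ± 12.4 for KO against 426 ± 8.88 for WT (± SD, n = 2 each), with a log2 fold change of 1.11 (SE 0.032), or 2.16-fold.

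Hmga1b went the other way. Its estimated counts were 78.24 and 55.85 in the KO libraries against 1730.33 and 1810.4 in the WT libraries. After scaling, the KO libraries stood at 6.86 and 5.10 CPM and the WT libraries at 208 and 200.2 CPM, so the genotypes were far apart and each pair of libraries was close. Mean CPM was 5.98 ± 1.24 for KO against 204 ± 5.14 for WT, with a log2 fold change of -5.09 (SE 0.086), which left 2.95% of the WT level, or a level 34.0-fold lower. Of the 12192 tested genes only 3 had a lower fitted log2 fold change.

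Hmga1b made up 32.4% (exact 95% binomial interval 31.2 to 33.7) and 32.3% (31.1 to 33.5) of the reads given to the pair in the WT libraries. In the KO libraries it made up 0.732% (0.577 to 0.910) and 0.556% (0.421 to 0.723). These Clopper-Pearson intervals rest on rounded estimated counts and cover counting error only, not the split of shared reads. The intervals of the 2 WT libraries overlapped, as did those of the 2 KO libraries, and the genotypes were far apart.

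The sum of Hmga1 and Hmga1b, which does not depend on how reads are divided between them, was higher in KO. It came to 10690.81 and 10053.64 in the KO libraries against 5333.27 and 5603.26 in the WT libraries, in estimated counts. On the CPM scale the KO libraries held 937 and 918 and the WT libraries 640 and 620, again without overlap. Mean CPM was 927 ± 13.6 for KO against 630 ± 14.0 for WT, with a log2 fold change of 0.56 (SE 0.031), or 1.47-fold. From WT to KO, mean CPM differed by 495 for Hmga1, by -198 for Hmga1b and by 298 for the sum. The difference at Hmga1 was thus larger than the opposite one at its copy, and both rows added together were higher in KO. No transcript form was counted on its own, so the sum is not a level of message for 1 protein.

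**Figure D1:**
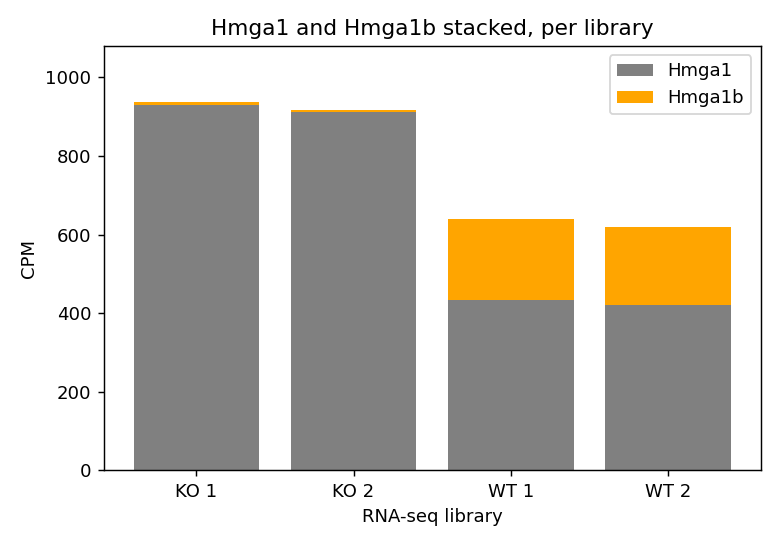
CPM of Hmga1 (grey) and Hmga1b (orange) stacked for each RNA-seq library. The orange part is 200.2 to 208 CPM in the WT libraries and 5.10 to 6.86 CPM in the KO libraries, while the whole bars reach 937 and 918 CPM in KO against 640 and 620 in WT.

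Hmga2 differed little. Its estimated counts were 435 and 416.98 in the KO libraries against 392 and 397 in the smaller WT libraries. After scaling, the KO libraries held 38.1 and 38.1 CPM and the WT libraries 47.0 and 43.9 CPM. The genotypes did not overlap, and the gap from the lower WT library to the KO libraries was wider than that between the 2 WT libraries. Mean CPM was 38.1 ± 0.044 for KO against 45.5 ± 2.19 for WT, with a log2 fold change of -0.25 (SE 0.082), the 2438th lowest among the tested genes. Hmga2 overlaps the antisense genes 1700006J14Rik and 9230105E05Rik, and the RNA kit is not stated to keep strand, so reads from these could count towards it.

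Non-overlap of 2 against 2 libraries was common in these data. It held for all 3 members and the sum, but also for 67.1% of the 12192 tested genes. By the edgeR quasi-likelihood test, 35.7% of tested genes passed an adjusted p of 0.05 (Benjamini-Hochberg), 18.3% as higher and 17.4% as lower in KO, around a median log2 fold change of 0.0014. The members' place among all genes, in the plot of fold change against level, is read from the same contrast and is shown as a description.

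**Figure D2:**
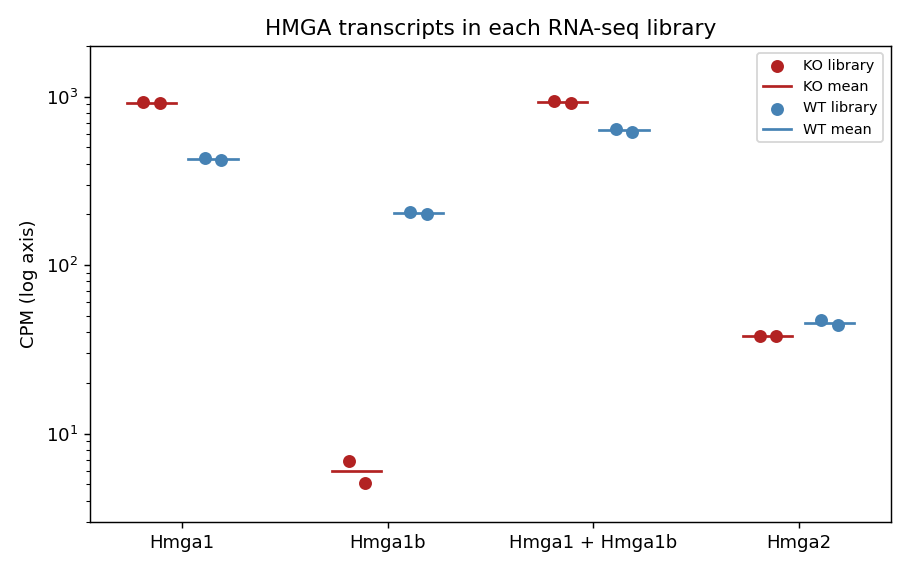
CPM on a log axis for Hmga1, Hmga1b, their sum and Hmga2, with a point for each RNA-seq library and a line at the mean of each genotype (red KO, blue WT). Hmga1b lies at 5.98 CPM in KO against 204 in WT, Hmga1 at 921 against 426, and Hmga2 at 38.1 against 45.5.

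**Figure D3:**
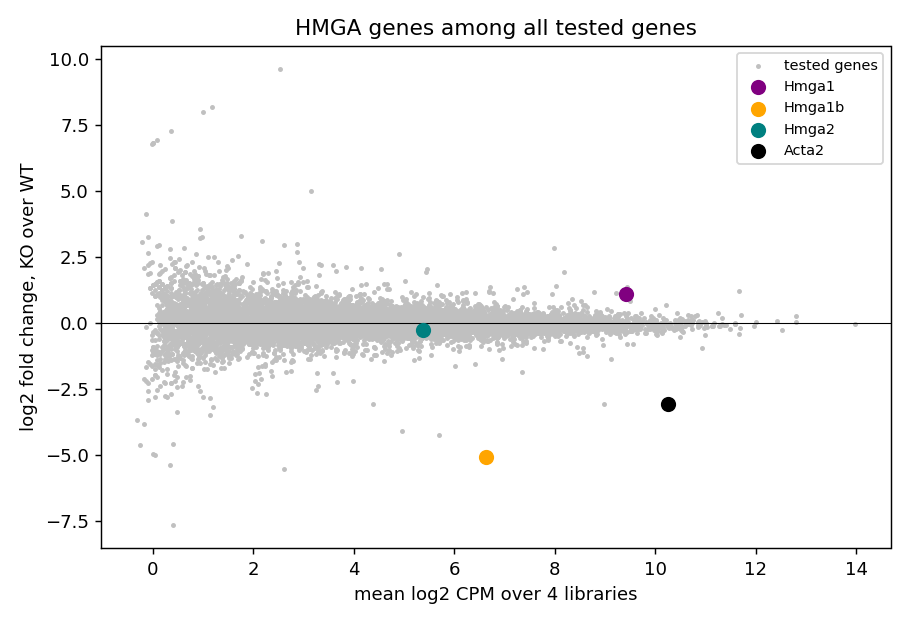
Fitted log2 fold change (KO over WT) against mean log2 CPM for the 12192 tested genes (grey), with the 3 HMGA genes and Acta2 in colour. Hmga1b, at -5.09, stands below genes of like level, Hmga1 lies at 1.11, and Hmga2, at -0.25, lies within the grey band.

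Levels of different genes can be compared only per length of transcript, here CPM per kb of the longest annotated one. In WT, Hmga1 stood at 213 ± 4.44, Hmga1b at 125 ± 3.16 and Hmga2 at 11.9 ± 0.575 CPM per kb (SD, n = 2). In KO, Hmga1 stood at 460 ± 6.19, Hmga2 at 10.0 ± 0.012 and Hmga1b at 3.68 ± 0.765 CPM per kb. The order of Hmga1b and Hmga2 was thus opposite in the 2 genotypes, and no neighbours in either order came within their spread of each other. That spread is between libraries and leaves out the uncertain split of reads between Hmga1 and Hmga1b.

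The targeted gene was low in the libraries labelled KO. The estimated counts of Acta2 were 2921.15 and 2909.21 there against 18230 and 19889.62 in the WT libraries, a log2 fold change of -3.07. The libraries held 8429166 to 11370115 estimated counts. Markers of other cells moved as well, beside 18.3% of all tested genes called higher and 17.4% called lower. Of 8 macrophage and leukocyte markers 5 were tested, of which 4 were higher in KO and none lower, with a median log2 fold change of 0.78. Their summed CPM was 171 to 172 in the KO libraries and 95.8 to 99.3 in the WT libraries, while Fcgr1 was at 0 in all 4 libraries and Ptprc, which defines leukocytes, had 11 and 9 counts in KO and 5 and 1 in WT. Of 8 endothelial markers, all tested, 6 were higher and 1 lower, with a summed level of 141 to 154 CPM in KO and 108 to 114 in WT. Of 8 cardiac fibroblast markers 7 were lower and none higher, and their sum was 2959 to 2978 CPM in KO and 3850 to 3974 in WT. Pericyte and smooth muscle markers split into 2 higher and 3 lower of 5 tested, and mesothelial markers into 1 higher and 4 lower of 5. Of 6 cardiomyocyte markers, only Tnnt2 was tested, and it was lower. Whether a different mix of cells had a part in the HMGA values was not tested, and in bulk RNA fewer cells of a type and less RNA per cell cannot be told apart.

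The likeness of other genes to each member was measured as the Euclidean distance between log2 CPM values over the 4 libraries, each centred on its mean, over tested genes whose log2 CPM averaged 2 or more. Nearest to Hmga1 were Clec4e, a C-type lectin receptor of myeloid cells, at 0.041, Efhd2, a calcium-binding protein, at 0.044, and Pvr, the poliovirus receptor, at 0.064. Nothing came near Hmga1b: its closest genes, Ucp2, a mitochondrial carrier, Il1rl1, the receptor of interleukin-33, and Tagap, a GTPase-activating protein, were at 0.847, 1.11 and 1.15, with log2 fold changes of -4.23, -4.08 and -5.53. The sum was closest to Amigo2, Igfbp3 and Ubox5, at 0.011, 0.015 and 0.022. Hmga2 was closest to Rpl11, a ribosomal protein, Aimp2 and Glrx, at 0.0089, 0.015 and 0.015. With 2 libraries a genotype, these distances mostly rank genes by their genotype difference.

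Opposite movement of near-identical rows was seen in a few other pairs. The table held 77 pairs of tested genes that do not overlap in the genome and in which at least 50% of the stretches of the shorter transcript were shared. In 8 pairs, or 10.4%, 1 gene was called higher and the other lower. Hmga1 and Hmga1b count among the 8, but they were chosen for their difference between the genotypes, so their place there is a description. Their log2 fold changes differed by 6.20, against a median of 0.49 over the 77 pairs. The 4 pairs with a wider gap were replication histone genes, whose summed level was at most 14.0 CPM in either genotype. The other 7 pairs called in opposite directions had summed levels of 1.40 to 471 CPM, so Hmga1 and Hmga1b, at 927 and 630 CPM, were the most abundant of the 8. Among 269 tested genes that share at least 50% of their stretches with another gene of the table, 13.8% had a log2 fold change of 1 or more in size, against 5.62% of the 11916 others.

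The promoters, from RefSeq on GRCm38.p6, are printed because the copied sequence of Hmga1b begins at its annotated start, so that the 2 genes differ in what lies before it. Each runs from 250 bases before to 50 after an annotated start, in the direction of transcription. Capitals mark matches on either strand to the GC box (GGGCGG), the AP-1 site (TGACTCA) and the CCAAT box (CCAAT). The first of 2 entries for Hmga1 is shown, at chr17:27556324-27556623 on the plus strand, with Hmga1b at chr11:120762544-120762843 on the plus strand and Hmga2 at chr10:120476420-120476719 on the minus strand.
Hmga1: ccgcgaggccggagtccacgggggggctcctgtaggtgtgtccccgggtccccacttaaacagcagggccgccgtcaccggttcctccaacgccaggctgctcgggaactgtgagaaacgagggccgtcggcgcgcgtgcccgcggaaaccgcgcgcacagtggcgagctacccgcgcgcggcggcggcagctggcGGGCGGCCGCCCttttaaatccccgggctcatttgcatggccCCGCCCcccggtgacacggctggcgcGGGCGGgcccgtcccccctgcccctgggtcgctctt
Hmga1b: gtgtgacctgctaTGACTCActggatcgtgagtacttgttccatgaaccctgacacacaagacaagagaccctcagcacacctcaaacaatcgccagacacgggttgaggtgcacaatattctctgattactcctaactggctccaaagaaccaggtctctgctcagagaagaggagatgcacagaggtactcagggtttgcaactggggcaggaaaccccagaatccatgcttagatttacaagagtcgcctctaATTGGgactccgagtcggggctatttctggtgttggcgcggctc
Hmga2: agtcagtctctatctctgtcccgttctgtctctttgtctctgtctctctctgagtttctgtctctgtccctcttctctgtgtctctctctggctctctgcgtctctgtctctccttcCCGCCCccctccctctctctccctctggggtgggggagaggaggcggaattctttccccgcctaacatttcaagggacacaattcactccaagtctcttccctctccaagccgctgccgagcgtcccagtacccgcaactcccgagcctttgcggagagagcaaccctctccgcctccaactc
The Hmga1 promoter was 74.0% G and C and held 4 GC boxes, 2 of which adjoin, while that of Hmga1b was 51.3% G and C and held no GC box. The Hmga2 promoter stood between them, at 57.7% with 1 GC box, and the mean of the 32851 promoters was 53.8%. A GC box occurs in 35.7% of those promoters. The Hmga1b promoter held an AP-1 match 237 bases before the start and a CCAAT match just after it, motifs found in 5.20% and 37.4% of promoters. None of the 3 held the E-box CACGTG, found in 7.15%, the TATA box TATAAA, found in 13.6%, or the CArG box of serum response factor, found in 1.63%. These are matches of letters, not evidence of a bound factor.

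Chromatin at the start of Hmga1b was open in both libraries, and by nearly the same measure. The peak there spanned chr11:120762017-120763401 in KO, with a fold enrichment over background of 14.9 and a -log10 q of 33.4, and chr11:120762074-120763328 in WT, with a fold enrichment of 14.8 and a -log10 q of 33.8. The ratio of KO to WT was 1.01, beside a transcript level in KO of 2.95% of WT. The summits lay 123 and 126 bases before the start. Of the peak, 43.9% in KO and 42.6% in WT lay inside the gene, and the last 1018 and 1091 bases of the gene carried no peak. Per the labels' protocols only unique alignments were kept, which can remove reads from copied sequence, so the signal inside the gene may be understated in both libraries. Within 10 kb on either side, KO had 3 peaks and WT 2. The second shared peak lay 10.7 kb beyond the start, with fold enrichments of 14.0 and 13.1, and the peak found in KO alone lay 9.02 kb before it, at 6.38.

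Hmga1 sat in a wide stretch of open chromatin, with 9 peaks in KO and 8 in WT within 10 kb of the gene, 6 of the KO peaks overlapping a WT peak. The peak over its start was 5637 bases wide in KO (chr17:27554038-27559674) and 6021 in WT (chr17:27553634-27559654), with fold enrichments of 17.4 and 20.9. It was thus a little lower in KO, the genotype with more transcript, and the ratio of KO to WT was 0.832. As a log2 ratio this was -0.27, beside 0.0086 for the start-site peak of Hmga1b and -0.033 for that of Hmga2. Over 10112 peaks at protein-coding starts that pair one to one, the median log2 ratio was 0.18. The 5th and 95th percentiles of these were -0.30 and 0.66. A peak over the gene's later exons and introns had fold enrichments of 21.7 and 20.1. A peak that begins at the 3′ end of the gene in KO and just past it in WT, over AI413582, which overlaps Hmga1 on the opposite strand, reached 24.2 in KO and 16.8 in WT, where a second, weaker peak of 4.11 lay under the same KO peak.

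A peak 9.23 kb before the start of Hmga1, in the antisense gene Gm49774, differed most among the shared peaks of the 3 loci. It spanned chr17:27546066-27548349 in KO, with a fold enrichment of 23.0, and chr17:27546435-27548054 in WT, with 13.1, a ratio of 1.75. Of 82501 peaks that pair one to one between the libraries, 12.7% had a ratio of KO to WT of 1.5 or more and 5.03% a ratio of WT to KO of 1.5 or more, around a median log2 ratio of 0.16. Of the peaks paired in this way, 1 of 5 at Hmga1, 0 of 2 at Hmga1b and 0 of 12 at Hmga2 were at least 1.5 times as high in KO, and none was as much higher in WT. The limit of 1.5 was set after the peaks had been seen. With 1 library a genotype there is no replicate check of any peak.

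**Figure D4:**
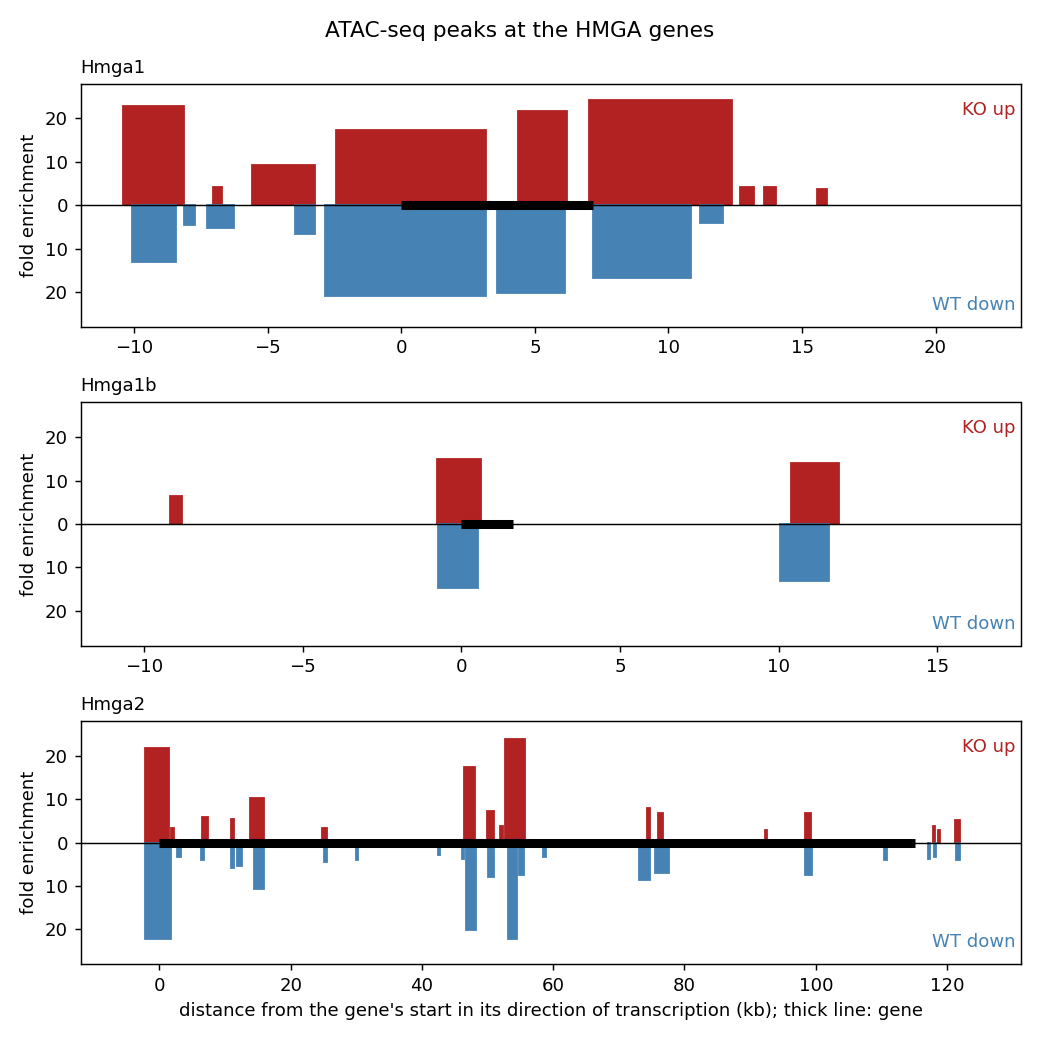
Authors' peaks at the 3 loci, drawn at their width against the distance from the gene's start in kb, with height as fold enrichment (KO upwards in red, WT downwards in blue) and the gene as a thick line. The start-site peaks of Hmga1b (14.9 and 14.8) and Hmga2 (21.7 and 22.2) are alike in both libraries, while the peak 9.23 kb before Hmga1 reaches 23.0 in KO and 13.1 in WT.

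Hmga2 had peaks along its whole length, 17 in KO and 22 in WT, of which 13 in KO overlapped a WT peak. The peak over its start had fold enrichments of 21.7 in KO and 22.2 in WT. Its introns held 2 peaks of like height: 1 53.7 kb into the gene in KO, at 23.8 in KO and 22.2 in WT, and 1 at 47.2 kb, at 17.4 and 20.1. Over the 12 paired peaks the median log2 ratio of KO to WT was -0.062 and the ratios ran from 0.753 to 1.45. The 4 peaks found in KO alone reached at most 3.83, and the 8 found in WT alone at most 5.34.

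The let-7 sites are shown because they divide Hmga2 from the other members. The seed of let-7a-5p, bases 2 to 8, is in capitals, as is its 7-base complement in each 3′ UTR.
let-7a-5p: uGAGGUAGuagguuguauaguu
Hmga2 site 1: acattcaatttCTACCTCagcatcagttg
Hmga2 site 2: actcctcaataCTACCTCtgaatgctaca
Hmga2 site 3: tttgcaaggaaCTACCTCcacacttccaa
Hmga2 site 4: aaaacacactaCTACCTCttaagtcccag
Hmga1 and Hmga1b site: ctgttcacaaaCTACCTCtggacggttgt
Hmga2 carried 4 such sites, a number reached by 12 of 20864 genes with a 3′ UTR, or 0.0575%. Hmga1 and Hmga1b each carried 1, in the same surroundings, as 8.88% of genes carry at least 1. The seed is shared by 11 mature mouse microRNAs listed by RefSeq. Small RNAs were not measured. Lin28a, which blocks let-7 maturation, had a count of 0 in all 4 libraries, and its paralog Lin28b had 4 and 1 counts in KO and 0 and 0 in WT, too few to compare.

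Of 13 genes that make, trim or block let-7, 10 were tested, of which 3 were higher in KO and none lower, with a median log2 fold change of 0.017: Dgcr8, a subunit of the microprocessor (0.58), Dis3l2, an exonuclease of uridylated precursors (1.23), and Tut7, a terminal uridylyltransferase (0.17). Among all tested genes, 18.3% were called higher and 17.4% lower. Other reported let-7 targets were called in both directions. Of 19 tested, 3 were higher, 6 lower and 10 did not pass, with a median of 0.054. Igf2bp1 (0.85), an RNA-binding protein, Arid3b (1.83) and Hras (0.36) were higher. Those lower included Ccnd1 (-0.67) and Ccnd2 (-0.40), the D-type cyclins, and Igf2bp2 (-0.53).

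Among genes reported elsewhere as regulated by HMGA proteins, 2 of 15 tested were higher in KO and 5 lower, with a median log2 fold change of -0.039. Of all tested genes, 18.3% were called higher and 17.4% lower. By DESeq2 only 2 of the list were called lower. Ptgs2, which encodes cyclooxygenase 2, reached estimated counts of 8887 and 9321 in the KO libraries against 2910 and 3528 in the WT libraries, a log2 fold change of 1.14 (SE 0.043, edgeR adjusted p = 4.29e-18), close in size to that of Hmga1. Kitl, the stem cell factor, was higher by 0.37. Igf2bp2, described as an HMGA2 target, was lower, as were Bub1 (-1.47), Ccna2 (-0.92) and Ccnb2 (-0.83) of the mitotic cycle and Snai1 (-0.38). Of 13 proliferation genes 2 were higher and 2 lower, with a median of -0.040. Ccnb1 (-0.61) and Top2a (-0.41) were the lower ones, and Rrm2 (0.25) and Mcm3 (0.24) the higher ones.

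Of 13 reported partners of HMGA proteins in transcription complexes, 3 were higher and 1 lower, around a median of 0.00097. Rela (0.51) and Nfkb1 (0.47), subunits of NF-κB, and Jun (0.34), a subunit of AP-1, were higher, and the acetyltransferase Kat2b (-0.64) was lower. Of 11 inputs of the TGF-β pathway, which induces HMGA2 in epithelial cells, 2 were higher, the ligands Tgfb2 (0.89) and Tgfb3 (1.09), and 3 lower, the inhibitor Smad7 (-0.56), Smad4 (-0.51) and the repressor Zeb1 (-0.26), with a median of -0.083. None of these shares can be read as particular to the lists, since 18.3% and 17.4% of all tested genes were called higher and lower.

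The other high mobility group genes were called in both directions, beside 18.3% of all tested genes called higher and 17.4% called lower. Of 7 tested HMGB and HMGN genes, 1 was higher and 3 lower, with a median log2 fold change of -0.042. Hmgn2, a nucleosome-binding protein, reached estimated counts of 797.07 and 751.97 in the KO libraries against 272.32 and 304.38 in the WT libraries, a log2 fold change of 1.06 (SE 0.076, edgeR adjusted p = 8.26e-12). Hmgb1 (-0.23), Hmgn3 (-0.32) and Hmgn5 (-0.60) were lower. Of the linker histones, which HMGA proteins displace from DNA, 5 were tested. Of these 2 were higher, Hist1h1c (0.54) and Hist1h1d (0.67), with none lower and a median of 0.54. Hist1h1b (0.63), H1f0 (0.05) and Hist1h1a (-0.83) did not pass the test. H1f0, the most abundant of the 5, was at 328 CPM in KO and 316 in WT.

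**Figure D5:**
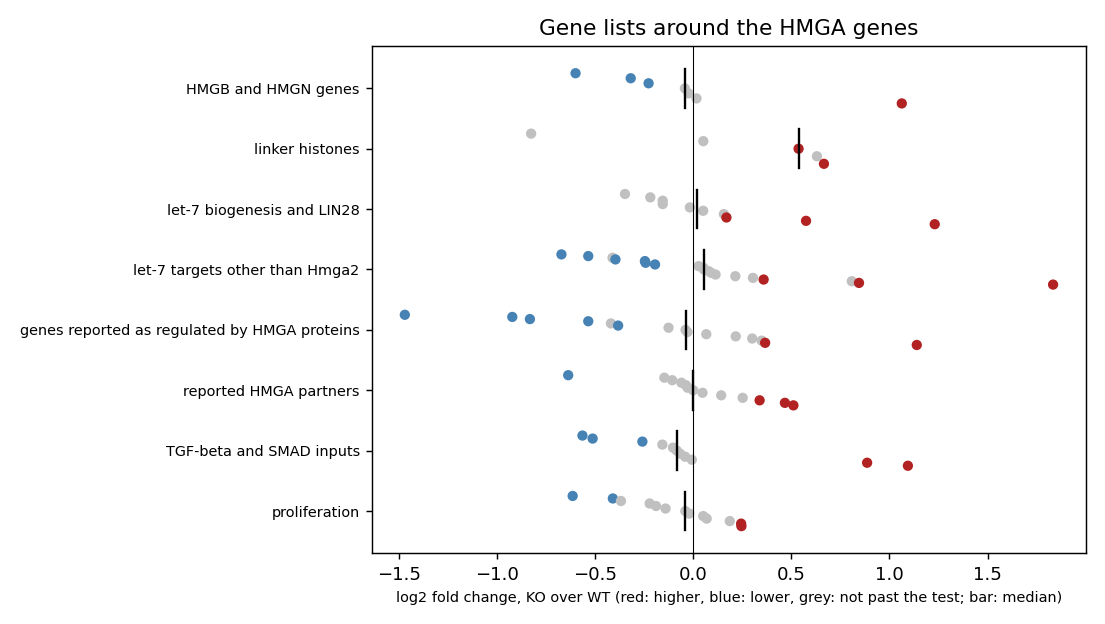
Fitted log2 fold changes (KO over WT) of the tested genes in the gene lists named on the axis (cell type markers and neighbours are not drawn), red where called higher, blue where called lower and grey where not past the test, with a black bar at the list's median. The medians lie between -0.083 and 0.054 in all lists drawn but the linker histones, at 0.54.

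Genes around each member were read in the same way, within 500 kb, beside the 18.3% of all tested genes called higher and the 17.4% called lower. At Hmga1b, 11 of 36 tested neighbours were higher and 7 lower, with a median of 0.056. The nearest tested genes were Cbr2, 30.7 kb before it, with 4 and 4 counts in KO and 13 and 12 in WT (-1.97), Dcxr (-0.13), Rfng, 16.3 kb beyond it (0.43), and Gps1 (0.05). The fold change of Cbr2 was the largest in size among the 36, against -5.09 for Hmga1b. At Hmga1, 2 of 11 were higher and 3 lower, with a median of -0.030. AI413582, which overlaps its 3′ end, had a log2 fold change of -0.13 that did not pass the test, and the kit is not stated to keep strand, so reads of the overlap may be shared. Nudt3 (-0.28), 15.7 kb beyond Hmga1, and Uqcc2 (-0.19) were lower, and Lemd2 was at -0.01. The genes called higher there were Itpr3 (0.45) and Ilrun (0.40), and the third called lower was Rps10 (-0.18). At Hmga2, 3 of 6 were lower and none higher, with a median of -0.21. They were Tmbim4 (-0.26) and Irak3 (-0.35) on 1 side and Msrb3 (-0.42) on the other, while Llph (0.01) and Lemd3 (-0.15) did not pass the test.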

How the data were processed

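RNA-seq was read as estimated counts per gene that the authors deposited in 1 table for 4 samples, with 10.8 to 12.2% of its values not whole. Per the labels' protocols, 150 bp paired reads passed through Trim Galore 0.6 and FastQC, and STAR 2.5.3a aligned them to mm10; the counting program is not given in the sources used here. ATAC-seq libraries, of 10000 cells each, were aligned with Bowtie2 2.3, and MACS2 called peaks in each sample, per the labels' protocols. The deposited lists hold a score, a fold enrichment (ratio to background) and, for the p-value and q-value of each peak, the −log10, but no depth.

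The estimates were rounded and fitted with edgeR 4.0.16 in R 4.3.3 (filterByExpr at a minimum count of 10, TMM, quasi-likelihood test of genotype, Benjamini-Hochberg at 0.05 over 12192 genes). The SE is the log2 fold change over the square root of F. Replicates differed beyond sampling noise (chi-square per degree of freedom 1.95 for KO, 1.75 for WT, and 16.3 to 16.9 across genotypes) and each counted as a sample. That does not show them to be separate cultures, so the adjusted p values may rest on technical spread. Sequences came from GENCODE M21, RefSeq and the GRCm38 genome (BLAST 2.17.0); of 25746 table genes, 25635 matched by identifier, 25471 of them with the same coordinates. Peaks count as shared with 1 base of overlap (bedtools 2.31.1), within 10 kb of the gene.

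The members, the gene lists and the named genes (up to 4 called members a list with the smallest p, in lists and among neighbours every gene behind a count of 5 or fewer, up to 2 tested neighbours a side, 3 likest genes) were chosen with earlier results of these data known. DESeq2 1.42.0, library-size scaling, no filter, an assumed BCV (biological coefficient of variation) of 0.2, leaving out each library and a replicate block were the alternatives.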

Additional observations from a re-analysis of the deposited data

How the results depend on the processing

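The log2 fold changes of Hmga1, Hmga1b, their sum and Hmga2 kept their direction under every alternative. All 39 values so obtained, each for 1 gene or the sum under 1 alternative, moved by less than the spread between libraries. With 2 libraries a genotype, leaving 1 out can hardly move a value by more than that spread, so those values could scarcely fail. An assumed BCV and the replicate block bear mainly on the error of a fold change, so they could move it little. In the replicate block the log2 fold changes were 1.11, -5.09, 0.56 and -0.25. With each library left out in turn they ran from 1.09 to 1.13, -5.32 to -4.89, 0.53 to 0.58 and -0.31 to -0.21; a genotype left with 1 library is assumed to vary like the other. Same-numbered KO and WT libraries did not deviate together (correlation 0.000403), and the block called 4408 genes.

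The number of genes called was 4352, 2058 by DESeq2, 398 with a BCV of 0.2 in place of the fitted 0.0311, and 3392 to 3674 without 1 library. By DESeq2, members called higher were 1 linker histone, 1 let-7 maturation gene, 1 let-7 target, 1 proliferation gene and 1 HMGN gene. Also higher were 2 HMGA-regulated genes, 2 partners, 2 TGF-β inputs and 1 and 5 neighbours of Hmga1 and Hmga1b. Those called lower by DESeq2 were 2 HMGA-regulated genes, 0 partners, 1 TGF-β input, 1 proliferation gene and 3 and 1 neighbours of Hmga1b and Hmga2. Also lower were 2 HMGB or HMGN genes, 5 let-7 targets and 2 neighbours of Hmga1. At a BCV of 0.2, 1 let-7 target, 1 HMGA-regulated gene and 1 TGF-β input were called higher, 1 HMGA-regulated gene and 1 neighbour of Hmga1b lower, and 0 in the other lists, save 1 HMGN gene higher. Without 1 library, the count lay between 1 and 2 for linker histones higher (1 without KO 2 or WT 1), 0 and 1 for let-7 maturation lower (1 without WT 1), 2 and 5 for HMGA-regulated lower (2 without KO 2), 0 and 1 for partners lower (0 without KO 1), 1 and 3 for TGF-β inputs lower (1 without KO 1), 1 and 2 for proliferation higher (1 without KO 1, KO 2 or WT 1), 1 and 3 for proliferation lower (1 without WT 2), 1 and 2 and 1 and 4 for Hmga1 neighbours higher (1 without KO 1 or WT 1) and lower (1 without WT 1), and 7 and 11 and 3 and 5 for Hmga1b neighbours higher (7 without KO 1) and lower (4 without KO 2, 3 without WT 2). The cause was not tested.

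Peak counts depend on the window by construction. With 2 kb flanks they were 3 in KO, 3 in WT and 3 shared at Hmga1, and 1, 1 and 1 at Hmga1b; with 50 kb they were 31, 30 and 21, and 27, 23 and 23. At a −log10 q of at least 5, Hmga1 had 5 peaks in KO and 6 in WT, the opposite order to that at the authors' threshold, and Hmga2 had 11 in each library. A reciprocal overlap of 50% left 4, 2 and 9 shared peaks at Hmga1, Hmga1b and Hmga2. Peak files give no depth, so no error can be put on a fold enrichment.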
